A study of Mus musculus with 11 samples.

Results

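VEGF and angiopoietin ligands and their receptors form the signalling systems through which tissue cells and endothelial cells build and maintain blood and lymphatic vessels. The genes were taken by symbol: the ligands Vegfa, Vegfb and Vegfc, their receptors Flt1, Kdr and Flt4, the ligands Angpt1 and Angpt2, and the receptor Tek with its relative Tie1. All 10 were found among the 24969 gene names of the bulk count table and in each single-cell matrix. The whole-mesenchyme matrices held 31053 genes. All 10 passed the low-count filter of every test.

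The study profiled mesenchymal cells of the mouse small intestine, taken after the muscle was stripped and the epithelium removed with EDTA, and freed with collagenase. Blood endothelium (CD31+LYVE1-) and lymphatic endothelium (CD31+LYVE1+) were sorted from C57BL/6 mice with antibodies, with 2 bulk libraries each. Telocytes (GFPHi, subepithelial cells with a high reporter signal) and PDGFRAlo stromal cells (GFPLo) were sorted from PDGFRAH2BEGFP transgenic mice, which carry a nuclear green fluorescent reporter at the Pdgfra gene, also with 2 bulk libraries each. The other 3 samples are droplet single-cell libraries, namely 1 of sorted GFP cells (2 parts GFPLo to 1 part GFPHi) and 2 of whole mesenchyme, for which no strain is given. Ages are not given, and strain and sorting scheme cannot be told apart from endothelium against stroma. The labels do not say that replicates came from separate animals or preparations, so each p-value reflects only how far the libraries at hand varied, and that variation may be technical.

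Bulk libraries held 8549348 to 55382442 counts, and the single-cell libraries kept 3845 sorted cells and 6128 and 5927 whole-mesenchyme cells after filtering. Levels are given as CPM, counts brought to a common library total, after TMM scaling for the bulk libraries and the whole-mesenchyme classes. CPM of the sorted library, of barcodes outside the called cells, of clusters and of single-cell marker sums are not TMM-scaled. The labelled types were checked against marker lists. The 10 blood endothelial markers summed to 25856 to 35199.8 CPM in the blood libraries and 3691 to 3774 CPM in the lymphatic libraries. The 7 lymphatic markers summed to 21.9 to 94.8 CPM in the blood libraries and to 3819 to 7343 CPM in the lymphatic libraries, and 1 of them, Ccl21a, was listed at 0 in every bulk library. Plasma cell markers summed to 4811 to 4857 CPM in the blood libraries, against 66941 to 171755 CPM in the lymphatic libraries, and macrophage markers to 1902 to 2638 CPM, against 7183 to 9338 CPM. The 9 telocyte markers summed to 6701 to 7846 CPM in telocytes and to 481 to 533 CPM in PDGFRAlo cells. The whole-mesenchyme libraries shared 9 cell barcodes, and the sorted library shared 1 with the first of them.

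VEGFA acts mainly through KDR (VEGFR2), the main signalling receptor of blood vessel growth, while FLT1 (VEGFR1) binds VEGFA and VEGFB tightly and, in part as a soluble form, holds VEGFA away from KDR. VEGFC acts through FLT4 (VEGFR3) and is known for lymphatic growth, including the upkeep of intestinal lacteals. ANGPT1, made by cells around vessels, activates TEK (TIE2) and steadies the vessel wall. ANGPT2 competes with it on blood vessels and acts as an agonist on lymphatic vessels, and TIE1 is a partner of TEK without a well-established ligand of its own.

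The sequences just before the annotated start sites are shown for Flt1, Kdr and Tek, the receptors called higher in bulk blood than in bulk lymphatic endothelium. Vegfa, the stromal ligand of highest bulk level, is shown as well. RefSeq promoters on build GRCm38.p6 matched 8 of the 10 genes. Angpt1 and Angpt2 had no entry. The Tie1, Flt4 and second Vegfa windows lay mostly in annotated exons and are not printed. The 4 motifs were searched on both strands in the 250 bases before each start, namely AGGAAG and CGGAAG, cores bound by ETS factors, and ACGTG and GCGTG, cores of hypoxia-response elements. Capitals mark the matches. The windows are chr5:75978459-75978705 for Kdr, chr5:147726012-147726261 for Flt1 and chr17:46032378-46032627 for the first Vegfa start, all on the minus strand, and chr4:94739039-94739288 for Tek on the plus strand.
Flt1: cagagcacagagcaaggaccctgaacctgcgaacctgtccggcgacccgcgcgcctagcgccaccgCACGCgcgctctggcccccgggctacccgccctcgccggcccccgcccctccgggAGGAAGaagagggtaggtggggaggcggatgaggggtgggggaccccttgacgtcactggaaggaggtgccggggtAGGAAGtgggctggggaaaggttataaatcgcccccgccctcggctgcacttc
Kdr: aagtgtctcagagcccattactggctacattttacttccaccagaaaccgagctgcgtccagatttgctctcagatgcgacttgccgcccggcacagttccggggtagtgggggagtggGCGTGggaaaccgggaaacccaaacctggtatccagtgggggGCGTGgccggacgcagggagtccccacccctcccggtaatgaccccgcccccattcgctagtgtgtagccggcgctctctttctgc
Tek: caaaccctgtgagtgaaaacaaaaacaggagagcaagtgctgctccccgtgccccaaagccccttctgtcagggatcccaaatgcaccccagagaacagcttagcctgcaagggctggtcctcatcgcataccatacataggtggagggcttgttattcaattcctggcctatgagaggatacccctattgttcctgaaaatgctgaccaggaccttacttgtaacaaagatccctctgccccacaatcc
Vegfa: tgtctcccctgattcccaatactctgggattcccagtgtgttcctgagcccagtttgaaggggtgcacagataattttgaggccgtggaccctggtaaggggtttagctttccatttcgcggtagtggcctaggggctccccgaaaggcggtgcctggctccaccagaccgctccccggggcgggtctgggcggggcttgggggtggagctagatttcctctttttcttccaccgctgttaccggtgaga
Kdr held GCGTG at 131 and 89 bases before its start. Flt1 held AGGAAG at 129 and 53 bases, and GCGTG on the opposite strand at 184 bases, printed as CACGC. The Tek window and the first Vegfa window held none of the 4 motifs, and neither did Vegfc or Flt4. The window of the second annotated Vegfa start held ACGTG and GCGTG, but 218 of its 250 bases lay in annotated exons. Tie1 held AGGAAG and CGGAAG, and Vegfb held GCGTG at 2 places. Over 32851 promoters of the same length, 29.5% held AGGAAG, 13.6% CGGAAG, 16.6% ACGTG and 28.2% GCGTG.

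Bulk endothelium against stroma asked which cells carry the receptors and which the ligands. Flt1, Kdr, Flt4, Tek, Tie1 and Angpt2 were higher in endothelium, Vegfa was lower there than in the stromal sorts, and Angpt1 was low in all 4 populations with its highest level in PDGFRAlo cells. Vegfb and Vegfc did not pass the test. Of the 10 genes, 6 were higher and 2 lower in endothelium, beside 31.7% higher and 28.8% lower among the 14893 genes tested (edgeR quasi-likelihood test, Benjamini-Hochberg adjusted p under 0.05). The median log2 fold change was 3.37 over the 10 genes and 0.07 over all genes. In bulk samples, fewer cells of a type and less RNA per cell cannot be told apart.

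Vegfa, the main angiogenic ligand (GRCm38 chr17:46016993-46032369), had 12.03 and 23.2 CPM in blood endothelium and 6.62 and 6.52 CPM in the lymphatic sort, against 247 and 299 CPM in telocytes and 90.0 and 40.5 CPM in PDGFRAlo cells. No endothelial library reached any stromal library, and both telocyte libraries were above both PDGFRAlo libraries. The log2 fold change of endothelium over stroma was -3.63 (SE 0.35, adjusted p = 3.7e-05). Vegfb, a ligand of FLT1 linked to metabolism (chr19:6982473-6987651), stayed between 14.1 and 36.9 CPM in all 8 libraries, and its groups overlapped (log2 fold change -0.32, adjusted p = 0.366).

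Vegfc, the lymphatic ligand (chr8:54077606-54187096), had 104 and 142 CPM in blood endothelium and 7.97 and 3.16 CPM in lymphatic endothelium, against 20.8 and 3.21 CPM in telocytes and 65.1 and 52.2 CPM in PDGFRAlo cells. Thus the high and the low population lay within both endothelium and stroma, and the averaged contrast was near 0 (log2 fold change -0.04, SE 0.50, adjusted p = 0.960). With both lymphatic libraries left out, blood endothelium was above stroma (2.22, adjusted p = 0.0149).

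Flt1 (chr5:147561604-147726011) had 2784 and 2829 CPM in blood endothelium and 77.5 and 23.5 CPM in lymphatic endothelium, against 5.27 and 3.45 CPM in telocytes and 209 and 62.7 CPM in PDGFRAlo cells. Blood endothelium stood far above every other population, and the lymphatic libraries overlapped PDGFRAlo. Gene counts do not separate the soluble form of FLT1 from the receptor. Kdr (chr5:75932827-75978458) had 986 and 1134 CPM in blood endothelium and 152 and 209.9 CPM in the lymphatic sort, against 9.19 and 4.36 CPM in telocytes and 387 and 124 CPM in PDGFRAlo cells. Blood endothelium was again highest, and 1 PDGFRAlo library was above both lymphatic libraries. Flt4 (chr11:49609263-49652739) had 68.3 and 93.5 CPM in blood endothelium and 167 and 258 CPM in the lymphatic sort, against 2.35 and 0.363 CPM in telocytes and 58.2 and 18.9 CPM in PDGFRAlo cells. Among the receptors, Flt4 alone had its highest level in lymphatic endothelium and no overlap between endothelium and stroma. The log2 fold changes were 3.95 for Flt1, 3.40 for Kdr and 4.19 for Flt4 (adjusted p = 0.000234, 0.000179 and 0.000217). With both PDGFRAlo libraries left out, the log2 fold changes over telocytes alone were 5.95 to 7.45 for the 5 receptors and Angpt2 and -4.72 for Vegfa.

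Tek (chr4:94739289-94874976) had 259.7 and 418 CPM in blood endothelium and 38.1 and 64.6 CPM in the lymphatic sort, against 1.07 and 2.00 CPM in telocytes and 137 and 81.4 CPM in PDGFRAlo cells. Tie1 (chr4:118471191-118490061) had 194 and 290.0 CPM in blood endothelium and 59.7 and 158 CPM in the lymphatic sort, against 1.78 and 1.88 CPM in telocytes and 121 and 41.4 CPM in PDGFRAlo cells. Both receptors were highest in blood endothelium and lowest in telocytes. Both PDGFRAlo libraries were above both lymphatic libraries for Tek, and these populations overlapped for Tie1. Their log2 fold changes were 3.34 for Tek and 3.74 for Tie1 (adjusted p = 6.1e-05 and 0.000141).

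Angpt2, the context-dependent TEK ligand (chr8:18690263-18741562), had 33.9 and 65.6 CPM in blood endothelium and 172 and 169 CPM in the lymphatic sort, against 0.784 and 0.242 CPM in telocytes and 34.3 and 6.47 CPM in PDGFRAlo cells. Lymphatic endothelium was highest and the log2 fold change was 4.84 (SE 0.59, adjusted p = 0.000139). Angpt1, the TEK agonist (chr15:42424723-42676977), had 1.21 and 3.27 CPM in blood endothelium and 3.11 and 3.16 CPM in the lymphatic sort, against 5.27 and 1.33 CPM in telocytes and 20.8 and 24.3 CPM in PDGFRAlo cells. Only the PDGFRAlo libraries stood apart, and telocytes overlapped endothelium (log2 fold change -1.71, adjusted p = 0.0141). With both PDGFRAlo libraries left out, the Angpt1 value was -0.37 (adjusted p = 0.667).

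**Figure D1:**
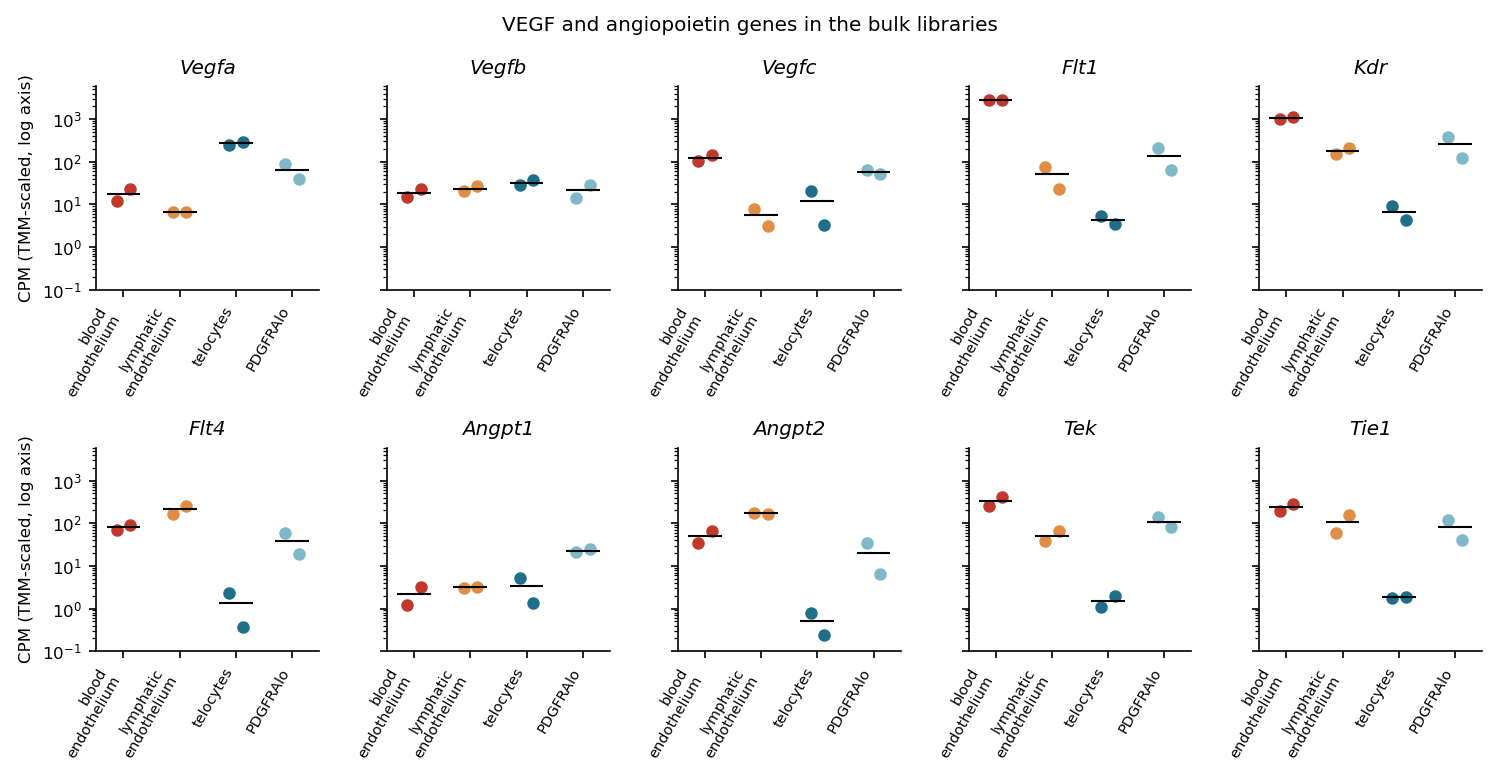
CPM of the 10 genes in each bulk library (points, log axis) with the mean of each population (bars). Flt1 in blood endothelium lies at 2784 and 2829 CPM, and Vegfa is highest in telocytes at 247 and 299 CPM.

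Per kilobase of exon, which allows genes to be compared, mean levels in blood endothelium were 208 CPM per kb for Flt1, 117 for Kdr, 72.0 for Tek, 50.2 for Vegfc and 49.2 for Tie1. In lymphatic endothelium the order was Angpt2 at 46.2 CPM per kb, Flt4 at 25.8, Tie1 at 22.2 and Kdr at 20.0. Telocytes had Vegfa at 63.7 CPM per kb, Vegfb at 20.3 and Vegfc at 4.90, with every other member under 1. In PDGFRAlo cells no member stood out, with Kdr at 28.3, Vegfc at 23.9, Tek at 23.2, Tie1 at 16.5 and Vegfa at 15.2 CPM per kb.

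Blood against lymphatic endothelium asked how the receptors are divided between the vessel types. In bulk, Flt1, Kdr, Tek and Vegfc were higher in blood endothelium, and no member was called lower. These 4 of 10 stand beside 14.7% of all genes called higher and 8.32% called lower. By edgeR 1 member (Angpt2) was lower at an unadjusted p under 0.05, and DESeq2 called 1 lower. The log2 fold changes were 5.80 for Flt1 (SE 0.81, adjusted p = 0.00234), 4.50 for Vegfc (SE 0.82, 0.00615), 2.72 for Tek (SE 0.47, 0.00491) and 2.55 for Kdr (SE 0.59, 0.0149). Angpt2 and Flt4 were lower in both blood libraries than in both lymphatic libraries without passing the test (-1.78, adjusted p = 0.0926, and -1.40, adjusted p = 0.166). Tie1 and Vegfa lay the other way without passing (1.15, adjusted p = 0.175, and 1.42, adjusted p = 0.0550), while Vegfb and Angpt1 overlapped. Without 1 of the lymphatic libraries the Kdr call was lost (adjusted p = 0.0925 without replicate 1 and 0.0758 without replicate 2), and without replicate 2 the Vegfc call was lost (0.0670).

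The same contrast was made in the whole-mesenchyme libraries on cells clustered without these genes, with UMI counts summed per library and class. Blood endothelial-like cells (158 and 159 cells) and lymphatic endothelial-like cells (86 and 81 cells) were named from markers, and Ccl21a led the lymphatic cluster. In these classes 3 genes were higher, 4 lower and 3 not called, beside 14.8% higher and 10.3% lower among 12368 genes. Flt1 had 1542 and 1296 CPM in blood endothelial-like cells, against 0 and 1.60 CPM in lymphatic endothelial-like cells (2743 and 1 UMIs). The ratio of the summed levels was 1738, with a 95% counting interval of 312 to 68691 (adjusted p = 9.31e-29). Vegfc had 80.4 and 89.1 CPM in the blood class, against 0 and 1.60 CPM in the lymphatic class, a ratio of 104 (18.4 to 4130.2, adjusted p = 1.23e-13). For both genes the lymphatic class rested on 1 UMI. Tek had 197 and 216 CPM in the blood class, against 69.8 and 97.7 CPM in the lymphatic class (log2 fold change 1.30, SE 0.20, adjusted p = 1.12e-06).

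Flt4 ran the other way, with 53.2 and 61.4 CPM in blood endothelial-like cells, against 1385 and 1367 CPM in the lymphatic class (log2 fold change -4.58, SE 0.11, adjusted p = 8.08e-32). Angpt2 had 15.7 and 21.5 CPM in the blood class, against 109.7 and 76.9 CPM in the lymphatic class (-2.32, adjusted p = 1.42e-08). Both genes had lain in this direction in bulk without a call. Kdr had 562 and 545 CPM in blood and 914 and 861 CPM in lymphatic endothelial-like cells (-0.68, SE 0.09, adjusted p = 1.57e-07), opposite to the bulk direction. The Kdr call was lost with DESeq2 (-0.72, adjusted p = 0.265). Vegfb was lower, at 8.35 and 5.12 CPM (13 UMIs) in the blood class, against 21.6 and 16.0 CPM (23 UMIs) in the lymphatic class (adjusted p = 0.0174). Barcodes with free RNA had Vegfb at 16.2 and 16.5 CPM, but without TMM scaling, so these values are not ranked against the class levels. Tie1 (225 and 211 CPM in the blood class, against 308 and 249.8 CPM in the lymphatic class), Vegfa and Angpt1 did not pass.

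Because the bulk lymphatic libraries held plasma cell and macrophage markers, each gene was also set against Pecam1, the gene of the CD31 antigen used in the sort. Pecam1 itself was at 802 and 909 CPM in bulk blood endothelium, against 123 and 198 CPM in bulk lymphatic endothelium. In the cells it had 900 and 910 UMIs of 857624 and 871646 in the blood class, against 205 and 208 UMIs of 467965 and 480743 in the lymphatic class. A lower Pecam1 level raises every lymphatic ratio, so the ratios are read as proportions to Pecam1 and not as levels. Per 100 Pecam1 counts, Kdr was at 122.8 and 124.7 in bulk blood endothelium and 123.1 and 105.9 in bulk lymphatic endothelium. In the cells, the ratios were 59.8 and 58.5 in blood and 268 and 259 in lymphatic endothelial-like cells. Relative to Pecam1, Kdr was thus close between the bulk sorts and lower in blood than in lymphatic cells, by more than in CPM (562 and 545 CPM in the blood class, against 914 and 861 CPM in the lymphatic class). Flt4 was lower in blood in both assays, at 8.51 and 10.3 in blood against 136 and 130.3 in lymphatic bulk libraries, and 5.67 and 6.59 in blood against 406 and 411 in lymphatic cells. Angpt2 was lower in blood as well, at 4.23 and 7.22 in blood against 139.6 and 85.3 in lymphatic bulk libraries, and 1.67 and 2.31 in blood against 32.2 and 23.1 in lymphatic cells. Tie1 was at 24.1 and 31.9 in blood against 48.5 and 79.8 in lymphatic bulk libraries, and 24.0 and 22.6 in blood against 90.2 and 75.0 in lymphatic cells, so relative to Pecam1 its bulk direction was opposite to that in CPM. Tek overlapped in both assays, at 32.4 and 46.0 in blood against 30.9 and 32.6 in lymphatic bulk libraries, and 21.0 and 23.2 in blood against 20.5 and 29.3 in lymphatic cells. Flt1 stayed higher in blood, at 347 and 311 in blood against 62.9 and 11.9 in lymphatic bulk libraries, and 164 and 139 in blood against 0 and 0.480 in lymphatic cells. The part of the other cells' RNA in the bulk values was not tested.

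**Figure D2:**
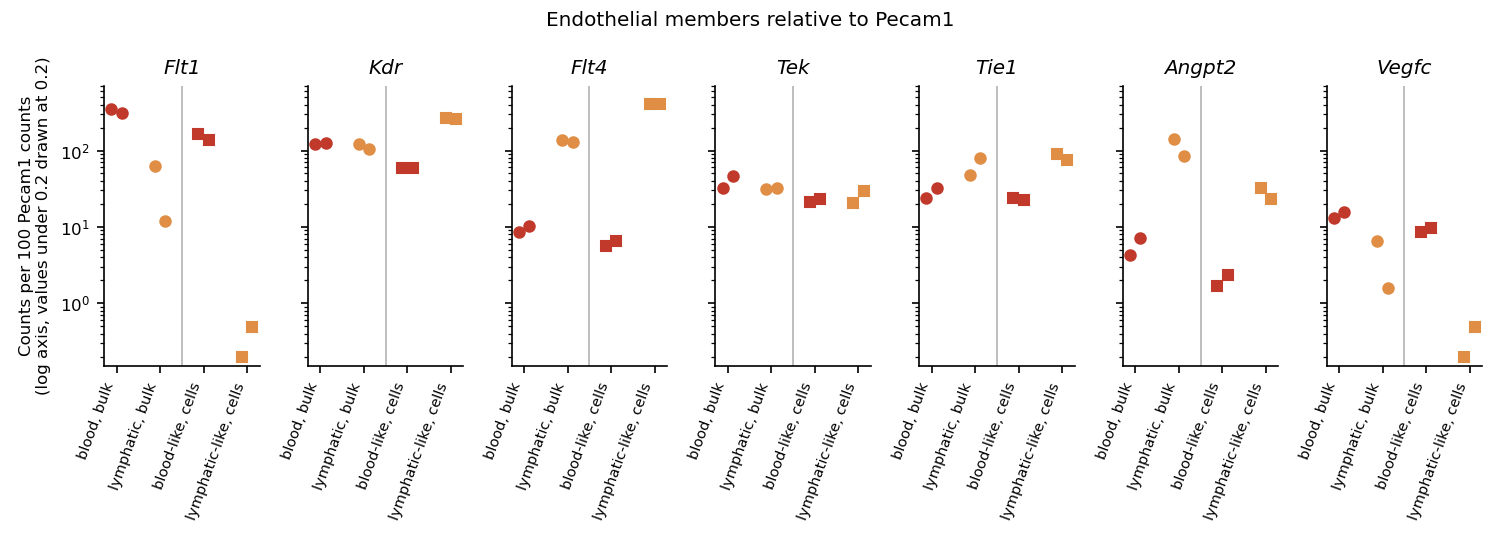
Counts of 7 genes per 100 Pecam1 counts (log axis) in blood and lymphatic endothelium, in bulk libraries (circles) and single-cell classes (squares), 1 point per library. Kdr lies at 59.8 and 58.5 in blood endothelial-like cells and at 268 and 259 in lymphatic endothelial-like cells.

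Within the blood endothelial-like cells, the members were uneven between its 2 clusters, given here as a description in unscaled CPM. A cluster of 61 cells led by Selp and Tmem252, with Ackr1, a gene of venules, among its leading genes, had Flt1 at 628 and 597 CPM, against 2129 and 1846 CPM in 256 cells led by Plvap and Ly6c1. Kdr was at 142 and 175 CPM in the Selp-led cluster, against 808 and 811 CPM in the Plvap-led one, and Tie1 at 159 and 124 CPM in the Selp-led cluster, against 286 and 288 CPM. Tek was not lower in the Selp-led cluster, at 267 and 273 CPM, against 203 and 228 CPM in the Plvap-led one, and Angpt2 was at 51.6 and 58.2 CPM (12 and 16 UMIs) in the Selp-led cluster, against 4.80 and 8.38 CPM (3 and 5 UMIs). Flt4 was at 21.5 and 29.1 CPM (5 and 8 UMIs) in the Selp-led cluster, against 73.6 and 87.1 CPM in the Plvap-led one. The Selp-led cluster thus had less of Flt1, Kdr, Flt4 and Tie1, and more Angpt2, in each library.

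Telocytes against PDGFRAlo cells asked how the GFP-high and GFP-low gates differ. Vegfa was higher in telocytes, and Angpt1 and every endothelial member were lower. Of the 10 genes 1 was higher and 7 lower, beside 2.77% higher and 12.1% lower among all genes. The Vegfa log2 fold change was 2.06 (SE 0.46, adjusted p = 0.0149), from 247 and 299 CPM in telocytes against 90.0 and 40.5 CPM in PDGFRAlo cells. Without telocyte replicate 2 or PDGFRAlo replicate 2 that call was lost (adjusted p = 0.0767 and 0.0935). Angpt1 was lower by the same test (-2.78, SE 0.71, adjusted p = 0.0281), and leaving out telocyte replicate 2, either PDGFRAlo library or either lymphatic library ended the call (adjusted p = 0.0532 to 0.163). Vegfc did not pass (-2.29, adjusted p = 0.0708) but was called without telocyte replicate 1 (-4.21, adjusted p = 0.00576), with no low-count filter (0.000262) and with DESeq2 (0.0139). Its telocyte libraries differed, at 20.8 and 3.21 CPM. Vegfb did not pass (0.62, adjusted p = 0.442).

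The receptors and Angpt2 were lower in telocytes by log2 fold changes of -6.14 for Tek, -5.46 for Tie1, -5.33 for Angpt2, -5.24 for Kdr, -4.96 for Flt1 and -4.85 for Flt4 (adjusted p = 0.000325 to 0.00400). All 10 blood endothelial markers were also lower in telocytes, with sums of 43.2 to 64.4 CPM in telocytes and 960 to 2765 CPM in PDGFRAlo cells. As a share of the blood endothelial mean, these markers reached 0.692% to 23.0% in PDGFRAlo cells, with a median of 6.90%. The members reached 4.84% for Flt1, 24.1% for Kdr, 32.3% for Tek, 33.5% for Tie1, 40.9% for Angpt2 and 47.7% for Flt4. The last 2 genes were highest in lymphatic endothelium, so their share of the blood mean is larger than of the lymphatic mean. Flt4 averaged 38.5 CPM in PDGFRAlo cells, against 213 CPM in the lymphatic sort, and Angpt2 averaged 20.4 CPM in PDGFRAlo cells, against 170 CPM. Both PDGFRAlo libraries held these transcripts, with each of the 6 members and 10 markers higher in replicate 1 than in replicate 2. How far RNA of endothelial cells made up these values was not tested in bulk.

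**Figure D3:**
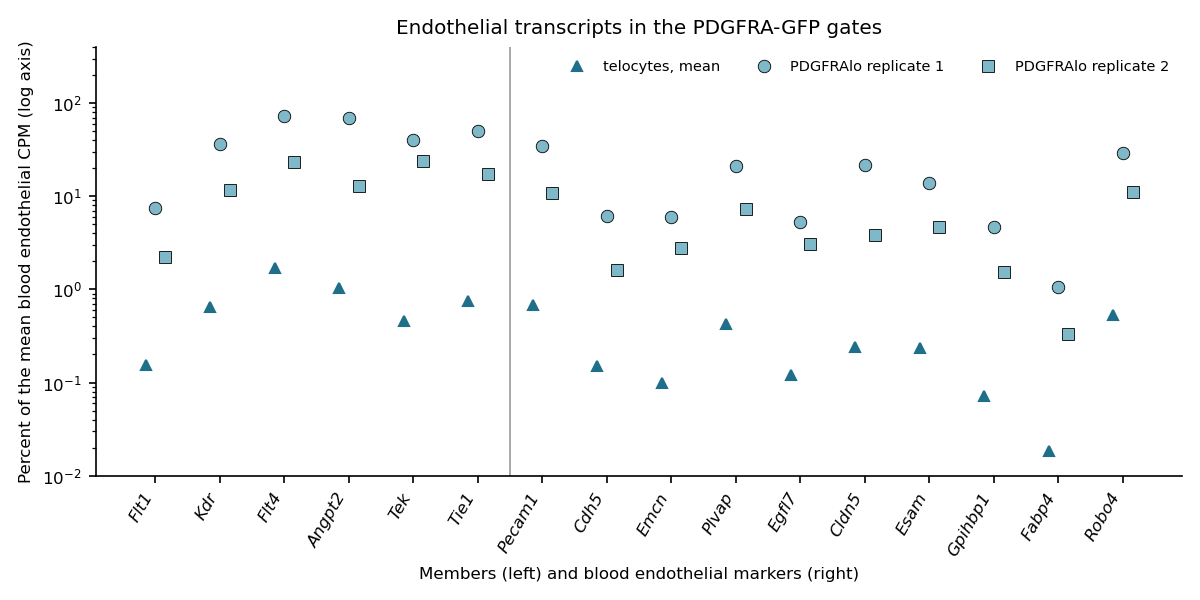
Level of 6 members (left) and 10 blood endothelial markers (right) in telocytes (mean, triangles) and in each PDGFRAlo library (circles and squares), as a percent of the mean blood endothelial CPM (log axis). In PDGFRAlo replicate 1, Flt4 reaches 71.9% and Flt1 7.45%, and in telocytes all 16 genes are lower.

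The sorted single-cell library held 3845 cells of the same reporter gates. Over all its cells Kdr had 1 UMI, Flt4 had 1, Flt1 had 3, Tie1 had 14 and Angpt2 had 20. The blood endothelial markers summed to 22.4 CPM. Of these, 8 Tie1 UMIs (8.40 CPM) and 7 Angpt2 UMIs (7.35 CPM) lay in a cluster of 210 cells led by Mmp10 and P2rx1. Tek had 88 UMIs or 4.78 CPM (exact Poisson 95% interval 3.83 to 5.89), and these were uneven between clusters too. The telocyte list was the best marker match of 3 clusters (1169 cells). Of these 3, a cluster of 177 cells led by Wif1 and Trp53i11 was telocyte-like, and the other 2 were left unnamed, since the leading genes of 620 cells led by Bmp3 and Acta2 held more smooth muscle than telocyte markers, and those of 372 cells led by Defa24 and Gm15284 held an epithelial marker and none of telocytes. They are pooled below as telocyte-marker clusters, with the telocyte-like cluster alone beside them. Pooled they had 0.179 CPM of Tek (1 UMI, none in the telocyte-like cluster), while a cluster of 213 cells led by Pi16 and Ly6c1 had 28.7 CPM. That cluster was left unnamed, its best match was the blood endothelial list with 2 markers detected, its leading genes held Fabp4 of that list and Pi16 of the fibroblast list, and it held all 3 Flt1 UMIs and the Flt4 UMI but no Kdr UMI. Angpt1 had 0.716 CPM (0.195 to 1.83) in the telocyte-marker clusters (0 UMIs in the telocyte-like one) and 12.9 CPM (11.0 to 14.98) in the others. Vegfc had 5.90 CPM (4.06 to 8.29) in the telocyte-marker clusters (3.35 CPM from 3 UMIs in the telocyte-like one) against 30.5 CPM (27.5 to 33.6) in the others, with its highest cluster value of 47.7 CPM in 658 cells led by Cd81 and Cldn10, which also held Angpt1 at 22.1 CPM. Vegfa was at 22.7 CPM (18.9 to 27.0) in the telocyte-marker clusters (29.0 CPM in the telocyte-like one) against 15.3 CPM (13.2 to 17.6) in the others. Cluster by cluster Vegfa overlapped, at 19.2 to 29.0 CPM in the telocyte-marker clusters and 6.27 to 28.4 CPM in the others. Vegfb was at 40.4 CPM (35.3 to 46.1) in the telocyte-marker clusters (39.1 CPM in the telocyte-like one) against 20.7 CPM (18.2 to 23.3) in the others. With 1 library there is no replicate check, and the intervals cover counting error only. Barcodes outside the called cells, which carry free RNA, had Vegfa at 20.7 CPM, Vegfb at 19.6 CPM and Vegfc at 21.7 CPM in this library.

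In whole mesenchyme, telocyte-like cells (123 and 119 cells, with the pericyte markers Abcc9 and Kcnj8 also among their leading genes) were set against fibroblast-like cells (960 and 905 cells). Vegfa was higher in telocyte-like cells, and Vegfc, Tek and Angpt1 were lower. That is 1 gene higher and 3 lower of 10, beside 10.5% higher and 17.5% lower among all genes. Vegfa had 73.6 and 92.6 CPM in telocyte-like cells, against 22.7 and 25.1 CPM in fibroblast-like cells (log2 fold change 1.79, SE 0.14, adjusted p = 4.78e-15). Vegfc had 9.76 and 6.67 CPM in telocyte-like cells, against 40.1 and 39.0 CPM in fibroblast-like cells (-2.27, SE 0.28, adjusted p = 3.62e-09). Angpt1 had 3.55 and 5.84 CPM in telocyte-like cells, against 15.1 and 16.2 CPM in fibroblast-like cells (-1.72, SE 0.43, adjusted p = 0.00140). These 3 genes lay in their bulk directions, though Vegfc was not called in bulk. Barcodes with free RNA had Vegfc at 11.0 and 11.8 CPM and Angpt1 at 5.52 and 5.90 CPM. These free-RNA values carry no TMM scaling, so no direction against telocyte-like cells is read from them. How far free RNA made up the telocyte-like values of both genes was not tested. Tek had 1 UMI in telocyte-like and 175 in fibroblast-like cells, a ratio of fibroblast-like over telocyte-like of 28.1 (counting interval 4.98 to 1116, adjusted p = 1.13e-05). Kdr, Flt4, Tie1 and Angpt2 were under 4 CPM in every library of both classes and were not called. Vegfb (adjusted p = 0.221) and Flt1 (0.0657) did not pass either. Vegfa in barcodes with free RNA was at 70.1 and 69.2 CPM in these libraries, without TMM scaling. That was close to the scaled telocyte-like level, while the fibroblast-like and plasma cell-like cells of the same libraries lay below both.

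The 19 classes of whole mesenchyme place the VEGF ligands among all the recovered cells. Vegfa was highest outside the stroma, in a class led by Il22 and Tnfsf11 (303 and 308 cells, no name from markers) at 541 and 650.5 CPM. Macrophage-like cells had 249 and 281 CPM, dendritic-like cells 123 and 137 CPM, and a class led by Xcl1 and Ccl4 had 85.1 and 90.9 CPM. Telocyte-like cells followed and overlapped that class, and they stood highest among the stromal and vascular classes. Vegfb varied less, with smooth muscle-like cells at 48.1 and 43.6 CPM, a class led by Pln and Ndufa4l2 at 41.1 and 43.9 CPM and telocyte-like cells at 36.4 and 28.4 CPM. Vegfc was highest in blood endothelial-like cells, then in smooth muscle-like cells at 63.1 and 63.1 CPM, fibroblast-like cells at 40.1 and 39.0 CPM and pericyte-like cells at 25.3 and 51.4 CPM, where the last 2 classes overlapped. Flt4 outside the endothelium reached 14.8 and 18.5 CPM in the class led by Il22 and Tnfsf11, from 14 and 18 UMIs. Barcodes with free RNA had Flt4 at 22.4 and 21.6 CPM, without TMM scaling.

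**Figure D4:**
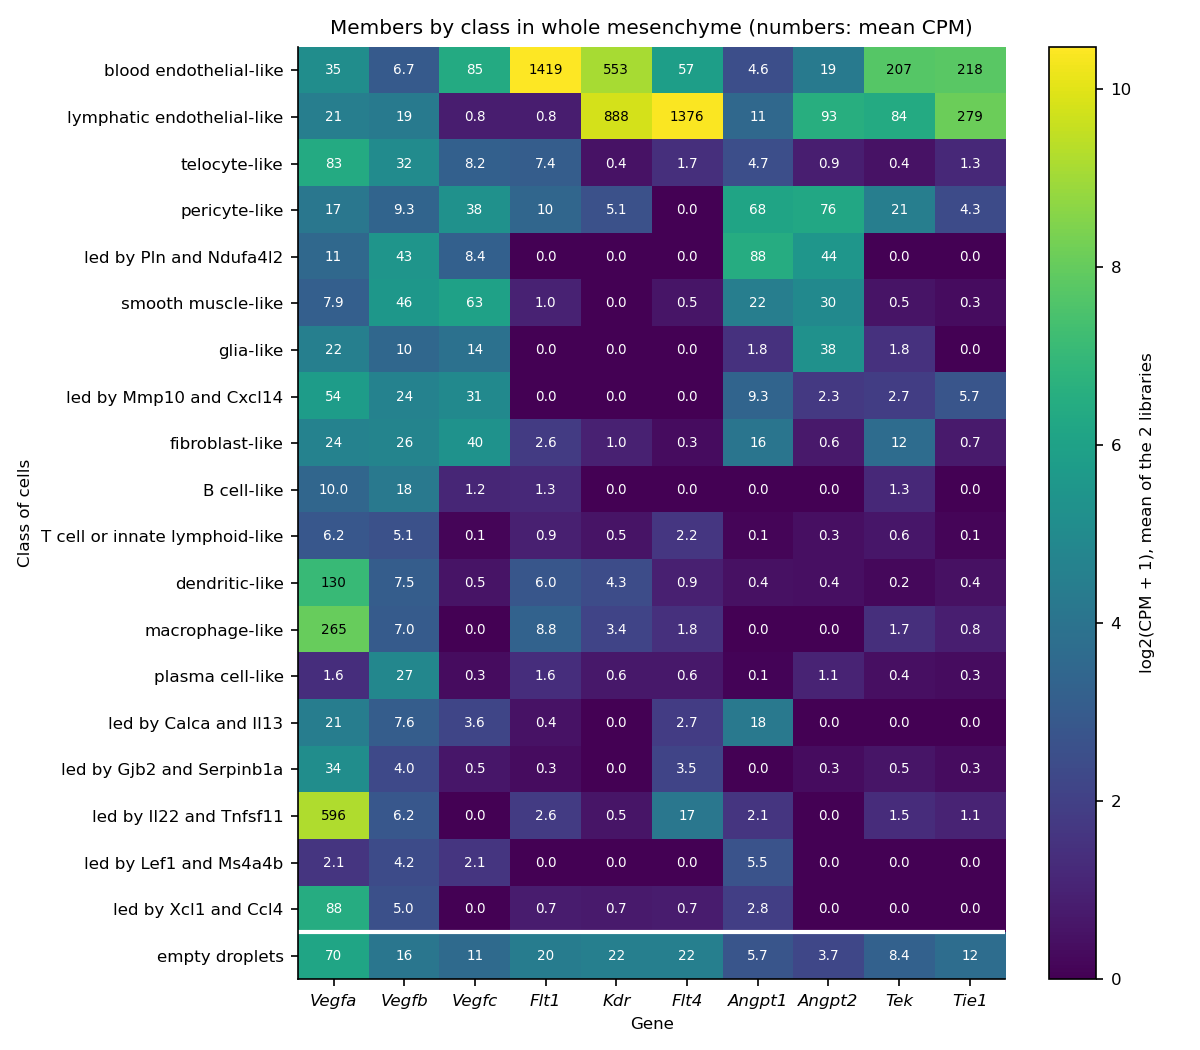
Mean CPM of the 10 genes in the 19 classes of the whole-mesenchyme libraries, with barcodes outside the called cells in the last row (numbers are means of 2 libraries, colour is log2 of CPM + 1). The last row is not TMM-scaled. Each of Flt1, Kdr, Flt4, Tek and Tie1 is highest in an endothelial class, and Vegfa is highest in the class led by Il22 and Tnfsf11.

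Pericyte-like cells, which wrap small vessels, were compared with fibroblast-like cells as a source of angiopoietins. Angpt1 and Angpt2 were both higher in pericyte-like cells and no other member passed. These 2 of 10, with 0 lower, stand beside 7.54% higher and 11.9% lower among all genes. At an unadjusted p under 0.05 by edgeR 1 gene was lower (Vegfb), and DESeq2 called 0 lower. Angpt2 had 70.7 and 81.5 CPM in pericyte-like cells (33 UMIs), against 0.531 and 0.717 CPM in fibroblast-like cells (9 UMIs), with a log2 fold change of 6.81 (SE 0.54, adjusted p = 9.42e-14). Angpt1 had 75.8 and 60.02 CPM in pericyte-like cells, against 15.1 and 16.2 CPM in fibroblast-like cells (2.097, SE 0.39, adjusted p = 4.15e-05). The pericyte-like class held 31 and 39 cells, and its blood endothelial markers summed to 426 and 465 CPM, against 23.7 and 25.5 CPM in fibroblast-like cells and 10536 and 10083 CPM in blood endothelial-like cells. The class led by Pln and Ndufa4l2, which carried smooth muscle and pericyte markers and was left unnamed, held both angiopoietins too, with Angpt1 at 74.7 and 101 CPM and Angpt2 at 36.6 and 51.2 CPM. Smooth muscle-like cells had less, with Angpt1 at 25.7 and 17.3 CPM and Angpt2 at 30.8 and 29.6 CPM. A class led by Calca and Il13 also had Angpt1, at 12.4 and 23.5 CPM (14 and 26 UMIs), and overlapped fibroblast-like cells. Angpt2 in glia-like cells, at 61.6 and 14.8 CPM, rested on 17 and 3 UMIs and differed between the libraries.

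Other genes of the pathway were taken from lists and read beside all genes. Of 17 further ligands, co-receptors and modulators, 16 were tested in bulk, and 4 were higher and 10 lower in endothelium than in stroma (median log2 fold change -3.17), beside 31.7% higher and 28.8% lower among all genes, so the higher calls were no more frequent than over all genes. Higher were Nrp1, a VEGFA co-receptor, at a mean of 816 CPM in endothelium against 328 CPM in stroma, Ptprb, the phosphatase that restrains TEK, at 456 CPM against 55.0 CPM, Esm1, a secreted endothelial proteoglycan, at 232 CPM against 18.3 CPM, and Vash1, an angiogenesis inhibitor, at 20.3 CPM against 4.03 CPM. For all 4, libraries overlapped between endothelium and stroma, and the lymphatic mean lay below that of a stromal sort. Nrp1 had 119 CPM in lymphatic endothelium against 638 CPM in PDGFRAlo cells, and Vash1 had 2.53 CPM against 5.81 CPM in telocytes. The lower genes included Svep1, an extracellular protein of lymphatic development, at 1.26 CPM in endothelium against 455 CPM in stroma, Vegfd, another FLT4 ligand, at 1.49 CPM against 21.2 CPM, and Angpt4, a TEK ligand, at 0.439 CPM against 18.1 CPM. Ccbe1 and Adamts3, which help process VEGFC, were at 0.103 CPM in endothelium against 13.6 CPM in stroma and at 0.284 CPM against 9.63 CPM. Adamts14 (6.01 CPM in endothelium against 29.1 CPM in stroma), the matrix protein gene Thbs1 (326 CPM against 1015 CPM) and Angptl1, Angptl2 and Angptl4 (2.45, 4.10 and 13.9 CPM against 206, 448 and 104 CPM) were lower too. Pgf, a ligand of FLT1, and Nrp2, a co-receptor for VEGFC, were not called.

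Between the gates, telocytes had 1 of the 16 higher and 6 lower, beside 2.77% higher and 12.1% lower among all genes. Angpt4 was higher at 28.1 CPM in telocytes against 8.10 CPM in PDGFRAlo cells (log2 fold change 1.79, adjusted p = 0.0456). Svep1 (13.7 CPM in telocytes against 897 CPM in PDGFRAlo cells), Vegfd (5.02 CPM against 37.4 CPM), Angptl2 (236 CPM against 660.0 CPM), Nrp1 (18.0 CPM against 638 CPM), Ptprb (2.77 CPM against 107 CPM) and Esm1 (0.812 CPM against 35.7 CPM) were lower. Nrp1 was also lower in telocyte-like than in fibroblast-like cells of whole mesenchyme, at 23.9 and 26.7 CPM in telocyte-like cells against 303 and 315 CPM in fibroblast-like cells, and so was Svep1, at 49.7 and 60.1 CPM in telocyte-like cells against 810 and 773 CPM in fibroblast-like cells. There 15 were tested, of which Nrp2 alone was higher and 6 were lower, beside 10.5% higher and 17.5% lower among all genes. The blood endothelial genes Ptprb and Esm1 did not pass there. In pericyte-like cells 2 of the 15 were higher (Thbs1 and Adamts3) and 5 lower than in fibroblast-like cells (Svep1, Angptl1, Angptl2, Pgf and Vegfd), beside 7.54% higher and 11.9% lower among all genes.

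Between vessel types, 7 of the 16 were higher and 2 lower in bulk blood endothelium, beside 14.7% higher and 8.32% lower among all genes. Nrp1 had 1514 CPM in blood against 119 CPM in lymphatic endothelium, Ptprb 867 CPM against 44.7 CPM, Esm1 432 CPM against 31.0 CPM, Vash1 38.1 CPM against 2.53 CPM and Thbs1 532 CPM against 121 CPM, with Vegfd and Angptl2 low in both. Adamts14 and Angptl4 were lower in blood. In the single-cell classes 4 of 15 were higher and 3 lower, beside 14.8% higher and 10.3% lower. Nrp1 had 1212 UMIs in blood and 3 in lymphatic endothelial-like cells, and Esm1 had 213 and 0 UMIs, at least 45.0-fold higher against a floor of 3 UMIs over the lymphatic class. Ptprb had 1345 and 1420 CPM in the blood class, against 293 and 295 CPM in the lymphatic class, and Thbs1 was higher as well. Nrp2 had 199 and 213 CPM in the blood class, against 1044 and 1057 CPM in the lymphatic class, Pgf had 6.26 and 1.02 CPM in the blood class, against 96.4 and 110.5 CPM in the lymphatic class, and Angptl4 was also lower.

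Of 13 genes that mark tip cells or are known to respond to VEGF, 8 were higher and 3 lower in endothelium than in stroma, beside 31.7% higher and 28.8% lower among all genes. Kcne3 and Cxcr4 were the most strongly called of the higher and Nid2 and Nr4a1 of the lower. The endothelial libraries also held plasma cell and macrophage markers, and how far RNA of those cells entered these values was not tested. In blood against lymphatic endothelium 4 were higher and 1 lower (14.7% and 8.32% of all genes), with Aplnr, the apelin receptor, at 159 CPM in blood against 6.98 CPM in lymphatic endothelium. In telocytes 2 were higher and 8 lower (2.77% and 12.1% of all genes), and Aplnr was among the higher at 361 CPM, against 19.3 CPM in PDGFRAlo cells (log2 fold change 4.22, adjusted p = 0.000417). Telocyte-like cells had Aplnr at 85.2 and 79.3 CPM, against 0.664 and 0.861 CPM in fibroblast-like cells (6.64, adjusted p = 1.51e-19). In single cells, 6 of 12 were higher and 3 lower in blood endothelial-like than in lymphatic endothelial-like cells (14.8% and 10.3% of all genes), led by Nr4a1 and Rcan1 among the higher and Unc5b and Nid2 among the lower. Against fibroblast-like cells, the counts were 4 higher and 4 lower in telocyte-like cells (10.5% and 17.5% of all genes) and 2 higher and 2 lower in pericyte-like cells (7.54% and 11.9% of all genes).

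Of 10 receptor signalling genes, 2 were higher and 5 lower in endothelium than in stroma, beside 31.7% higher and 28.8% lower among all genes. Among them were the adaptor gene Dok2 (23.8 CPM in endothelium against 3.42 CPM in stroma) and Plcg1, the phospholipase downstream of KDR (10.8 CPM in endothelium against 53.2 CPM in stroma). The share of plasma cell and macrophage RNA in these endothelial values was not tested either. In bulk 3 were higher in blood than in lymphatic endothelium (14.7% of all genes) and 7 were not called, and 3 were lower in telocytes than in PDGFRAlo cells (12.1% of all genes), Foxo1 among them (49.1 CPM in telocytes against 157 CPM in PDGFRAlo cells). In single cells Foxo1 was lower in telocyte-like cells too, at 18.6 and 22.5 CPM, against 79.6 and 78.6 CPM in fibroblast-like cells. Of 16 hypoxia genes, 4 were higher and 3 lower in endothelium than in stroma and 9 were not called, which is no more than the 31.7% higher and 28.8% lower among all genes. In bulk blood against lymphatic endothelium 1 was higher, 1 lower and 14 not called (14.7% higher and 8.32% lower among all genes). Epas1, which encodes HIF-2 alpha, was higher, at 1085 CPM in blood against 21.7 CPM in the lymphatic sort (log2 fold change 5.65, adjusted p = 0.00270). Egln3, a HIF prolyl hydroxylase, was lower (-2.55, adjusted p = 0.00823). In the single-cell classes 5 of 15 were higher and 3 lower (14.8% and 10.3% of all genes). Epas1 had 1091 and 1044 CPM in blood endothelial-like against 48.2 and 59.2 CPM in lymphatic endothelial-like cells. Epas1 was also higher in telocyte-like cells (296 and 300.3 CPM) and pericyte-like cells (515 and 604 CPM) than in fibroblast-like cells (61.4 and 63.0 CPM). Of the 15 genes 4 were higher and 2 lower in telocyte-like cells (10.5% and 17.5% of all genes). In pericyte-like cells 3 were higher and 2 lower (7.54% and 11.9% of all genes). In bulk telocytes against PDGFRAlo cells 0 of the 16 were higher, 2 lower and 14 not called. This is beside 2.77% higher and 12.1% lower among all genes. The lower genes were Egln3 (0.746 CPM in telocytes against 19.9 CPM in PDGFRAlo cells) and Adm (26.9 CPM against 90.0 CPM). Epas1 was not called there by edgeR (adjusted p = 0.194).

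The genes whose log2(CPM + 1) ran most like a member were found by Pearson correlation over the 8 bulk libraries, among 9529 candidates. These points share 4 populations, so most of each r is the difference between populations, and r is given as a description. Kdr ran closest to Pecam1 (r = 0.999), Flt1 to Sox17 (0.995), Tie1 to Spns2 (0.998) and Tek to Ebf1 (0.993). Flt4 ran closest to Nlrp3 (0.993). Vegfa ran closest to Palld (0.993), Vegfc to Gcnt2 (0.987) and Angpt1 to C1qtnf3 (0.983), while Vegfb had no r above 0.913, with Kmt5c.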

How the data were processed

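RNA was measured in 8 bulk libraries (5 to 10 ng RNA each) and 3 droplet single-cell libraries. The authors deposited raw counts per gene for the bulk libraries and UMI counts per gene and barcode for the single-cell libraries. Per the submitters' processing notes, STAR, build mm10, Seurat and Cell Ranger 2.1.1 (sorted cells) or 3.0.2 (whole mesenchyme) were used; the counting program and annotation of the bulk table, and whether strand was used, were not given in the sources used here. Every per-sample column was used (0 left out), and 26 gene names that a spreadsheet had turned into dates, 0.131% to 0.523% of counts, stayed out of the tests.

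Bulk counts were tested with edgeR 4.0.16 in R 4.3.3 (filterByExpr, TMM scaling, quasi-likelihood F-tests, two-sided, Benjamini-Hochberg over 14893 genes, called under 0.05), with all 8 libraries in one fit (4 residual degrees of freedom). CPM per kb used the union of GENCODE exons on GRCm38. Single cells with at least 500 genes and at most 10% mitochondrial UMIs were kept. Doublets were removed at a score of 0.25, chosen after the automatic threshold marked almost no cell. Cells were clustered with scanpy 1.11.5 and leidenalg 0.10.2 at resolution 1 without the 66 genes described here, and named from marker lists; an exception for mast cell markers was set after the clusters were seen. For each class in each whole-mesenchyme library, UMIs were added up (20 or more cells in each) and tested by the same edgeR steps over 12368 genes with library as a block (18 residual degrees of freedom). Cells are not replicates. Between the whole-mesenchyme libraries, the median chi-square per gene was 0.802, against 0.455 for counting noise alone. They were therefore not merged and entered as 2 libraries, which does not show that they came from separate preparations. Barcodes with 1 to 100 UMIs outside the called cells stood for free RNA. Zero counts were given a floor of 3 UMIs over the class, and 95% intervals are exact and cover counting error only. The scripts were tested on simulated data.

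The members, lists and tests were chosen with earlier results of these data known. Named were all 10 members in each comparison, every gene of the first list with 1 CPM or more, up to 4 called genes of each other list by smallest p (2 in each direction) and the 3 genes most like each member, of which the closest is given (that for Angpt2 is not reported here), and clusters were described after their values were seen. Alternatives were DESeq2 1.42.0, its size factors, no low-count filter, each library left out, a replicate block, the compared libraries alone, tests without immune, epithelial and erythroid marker genes, and other cell filters and resolutions. Leaving out both PDGFRAlo or both lymphatic libraries was chosen after seeing the data.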

Additional observations from a re-analysis of the deposited data

Results flagged for a closer look

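For Kdr and Tie1, bulk sorts and single-cell classes lay in opposite directions under the same contrast of blood against lymphatic endothelium. Kdr had a log2 fold change of 2.55 in the bulk libraries, where both blood libraries were above both lymphatic libraries, and of -0.68 in the single-cell classes, where both blood values were below both lymphatic values. Tie1 had 1.15 in bulk and -0.35 in the single-cell classes, and neither passed its test. The difference between the assays was not tested, since the libraries were made and scaled separately.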

How the results depend on the processing

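Members called lower in bulk blood against lymphatic endothelium went up to 2 with no low-count filter (Angpt2 and Flt4), and to 1 with DESeq2 or with the 4 compared libraries alone, and ranged over 0 to 1 when each library was left out. Members called higher there ranged over 2 to 5. For telocytes against PDGFRAlo cells, members called higher ranged over 0 to 1. For endothelium against stroma, members called lower ranged over 1 to 2, and were 1 with both PDGFRAlo libraries left out. Vegfc for endothelium against stroma turned to 2.22 with both lymphatic libraries left out. Telocyte-like cells had 2 members called higher with no filter (Flt1 added) or DESeq2 (Flt4 added). DESeq2 ended the single-cell Kdr call, and the cause was not tested.

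Deviations from group means correlated above 0.1 in 2 of 6 group pairs. These were blood with lymphatic endothelium (0.279) and telocytes with PDGFRAlo cells (0.123), the pairs whose groups came from the same mouse line. The pairs across mouse lines lay between -0.097 and 0.0213. Whether libraries with the same replicate number shared a preparation was not tested, and the main fit used no replicate block. With the replicate block Vegfc was called in telocytes against PDGFRAlo cells (-2.58, adjusted p = 0.0318).

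Over all genes, telocytes against PDGFRAlo cells gave 412 higher calls, and 639 with DESeq2, 640 with those 4 libraries alone and 158 to 214 without telocyte replicate 1 or 2 or PDGFRAlo replicate 2; the 1800 lower calls became 889 and 1148 without a telocyte library. Blood against lymphatic endothelium gave 2183 higher calls, and 770 and 1206 without a lymphatic library, and 1239 lower calls, which were 1935 with DESeq2 and 398 to 777 without blood replicate 2 or a lymphatic library. Pericyte-like cells gave 1473 lower calls, and 873 with DESeq2. With 2 libraries a group and 31 to 39 pericyte-like cells, low transcripts such as Angpt1 and the receptors outside the endothelium rest on few counts. Each whole-mesenchyme library alone gave log2 ratios of the members, with 1 CPM added. For pericyte-like cells 8 of these differed from the fitted log2 fold change by 1 or more and 12 did not. For telocyte-like cells the counts were 3 and 17, and for blood against lymphatic endothelial-like cells 2 and 18.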
